A study of Mus musculus with 2 samples.

Results

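The Mmp12-high macrophages described here were 327 cells of the day-3 fracture library of a mouse periosteum series, out of 14463 retained barcodes in that library and 18894 in the series. They were chosen by measured values. Levels per cell are UMIs of a gene per 10000 UMIs of the cell. A barcode was retained with at least 500 genes, at least 1000 UMIs and at most 10% mitochondrial UMIs. A C1q macrophage held C1qa, C1qb and C1qc together at 10 or more, EGFP under 3 and Acp5 under 5. A C1q macrophage was Mmp12-high with Mmp12 at 10 or more, Arg1 under 5 and F13a1 plus Stab1 under 10. They were set against the 3686 C1q macrophages of the same library with Mmp12 under 2, called Mmp12-low here. Of these, 2000 also met the limits on Arg1, F13a1 and Stab1 and form the gated Mmp12-low macrophages.

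The study profiled live periosteal cells of Prx1Cre;mTmG mice by droplet single-cell RNA sequencing, with 1 library from day 3 after tibial fracture and 1 from uninjured periosteum. Both groups carry the same alleles: Cre driven by Prx1 regulatory sequence, active in limb mesenchyme, replaces tdTomato by EGFP at the membrane, and macrophages are outside that lineage. Cells of both groups came out of explants kept in serum and bFGF at 33 °C, per the labels' protocols. The series' design text also names explants but no expansion, so how long the macrophages were in culture is not settled. The labels give neither the age nor the number of animals. At day 3 there were 227191961 UMIs in 16332 barcodes, and uninjured 94034112 UMIs in 4573 barcodes. By sex-linked transcripts, 1623 retained day-3 cells were male and 9527 female, while 3329 uninjured cells were male and 1 was female. The libraries shared 3 barcode sequences, although the labels name the same kit for both, and injury, sex and library cannot be told apart between them. With 1 library per condition no test between samples could be made, and the 95% intervals given cover counting error only.

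Mmp12 encodes macrophage elastase, a secreted metalloproteinase that cleaves elastin and other matrix proteins and is made mainly by macrophages. Cd36 is a scavenger receptor that takes up oxidized lipoproteins, fatty acids and apoptotic cells. Lgmn encodes legumain, a cysteine protease of the lysosome, and Rnf128 encodes GRAIL, a membrane-bound E3 ubiquitin ligase. After a fracture, macrophages clear clot, dead cells and matrix in the callus, and they secrete factors that act on skeletal progenitors.

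The Mmp12-high macrophages made up 6.65% (5.97 to 7.38, exact Clopper-Pearson) of the 4918 C1q macrophages at day 3 and 2.26% of the retained barcodes. In uninjured periosteum the same rule found 13 of 1121 C1q macrophages, or 1.16% (0.619 to 1.97). The intervals of these shares did not overlap, and the difference has no replicate check. Within the day-3 library, they were 7.36% of male C1q macrophages (39 of 530) and 6.09% of female ones (201 of 3301), with overlapping intervals of 5.28 to 9.92% and 5.30 to 6.96%. Mmp12 itself, used by the rule, had a lowest, median and highest level of 10.0, 23.9 and 420 per 10000 in the Mmp12-high cells, with at least 2 UMIs in each and a median of 13. Levels of Mmp12 had no gap at the threshold, with 34 members between 10 and 12 and 58 gated cells between 8 and 10 just outside. The 34 members had Cd36 at 1002 CPM against 740 CPM in those 58 cells, and Rnf128 at 478 against 364 CPM. Lpl was at 777 against 746 CPM and Lgmn at 1933 against 2034 CPM. CPM here is a gene's UMIs as counts per 1000000, both summed over the cells of a group.

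**Figure D1:**
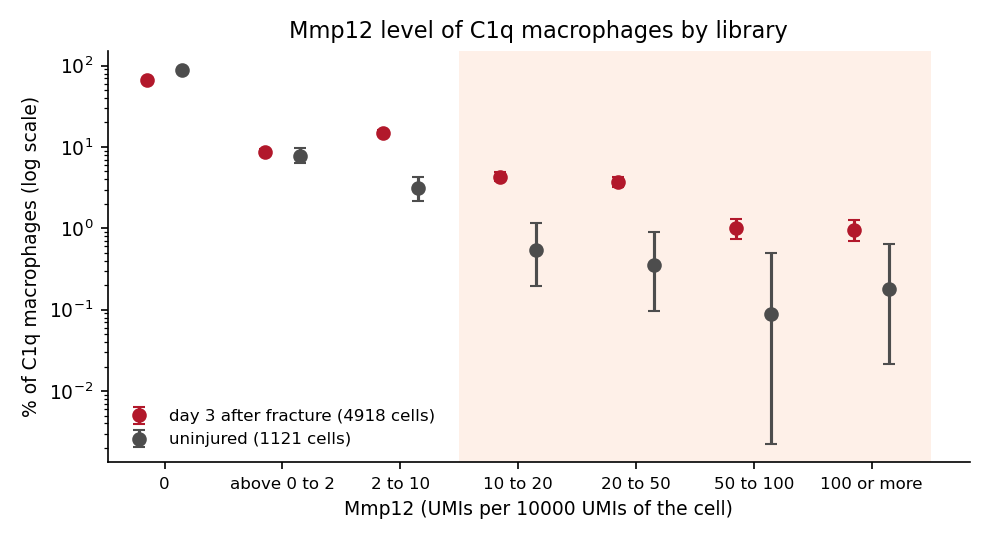
Share of C1q macrophages (%, log scale) by Mmp12 level (UMIs per 10000), in the day-3 library (4918 cells, red) and the uninjured library (1121 cells, grey), with exact 95% binomial intervals. In the shaded range, at 10 or more, 4.33% of day-3 and 0.535% of uninjured cells lay between 10 and 20, and 0.956% and 0.178% at 100 or more.

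Not all Mmp12 of the library lay in these cells. They held 18.3% of its Mmp12 UMIs. Of the 1221 retained day-3 barcodes with Mmp12 at 10 or more, 659 had C1q under 10, and a further 58 had EGFP at 3 or more. Among C1q macrophages that passed the level of Mmp12, 82 were left out for Arg1, 66 for F13a1 plus Stab1 and 17 for both. The 565 barcodes with Mmp12 at 10 or more, C1q under 10 and EGFP under 3 held 47.6% of the Mmp12 UMIs. Cd36 was at 1562 CPM in the Mmp12-high C1q macrophages and 1575 CPM in those barcodes, and Lpl at 1217 CPM against 1609 CPM. Of the 565, 101 held Arg1 at 5 or more. Other genes differed. Acp5 was at 31.3 CPM in the Mmp12-high C1q macrophages against 299 CPM in those barcodes, Atp6v0d2 at 61.2 against 159 CPM and Adgre1 at 220 against 141 CPM. Ctsk was at 294 CPM in those barcodes. The limit on Acp5 holds for the Mmp12-high C1q macrophages and not for those barcodes, so the Acp5 values follow in part from the rule. The C1q requirement therefore takes in only part of the Mmp12-rich cells of this library.

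Summed over each group, general macrophage genes were at similar levels in the Mmp12-high and Mmp12-low cells. Of 14 macrophage markers, Cd14 was at least 1.5-fold higher and Aif1 at least 1.5-fold lower, beside 3.97% and 3.65% of all genes. The other 12 lay within that range. Adgre1, which encodes F4/80, was at 220 CPM in Mmp12-high and 257 CPM in Mmp12-low macrophages (ratio 0.86, 0.77 to 0.94, exact conditional binomial). Cd68 was at 271 against 300.3 CPM and Csf1r, the receptor for the macrophage growth factor Csf1, at 438 against 524 CPM. Mmp12-high cells had a median of 5306 UMIs against 5792 in Mmp12-low cells, and a median mitochondrial share of 3.86% against 4.38%. The highest doublet scores, set at 0.8% of barcodes per 1000, marked 16.2% of Mmp12-high and 9.14% of Mmp12-low cells. Without the marked cells, 38 of 3677 genes were higher by 2-fold or more and 7 lower, beside 30 and 5 of 3671 with all cells. After thinning to 3000 UMIs, 26.8% of 246 Mmp12-high cells (21.4 to 32.8) and 30.6% of 3008 Mmp12-low cells (28.9 to 32.3) held at least 3 UMIs of mitosis genes. In the gated Mmp12-low cells that share was 39.4% (37.1 to 41.8).

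Among the 4 label genes, Cd36 differed most after Mmp12, and Lgmn and Rnf128 differed less. Cd36 was at 1562 CPM in Mmp12-high and 562 CPM in Mmp12-low macrophages, a ratio of 2.78 (2.67 to 2.89). It stood at 2129 against 668 CPM in male cells and at 1484 against 535 CPM in female cells, so the direction was shared by cells of both sexes. Lgmn was at 2498 against 1822 CPM, a ratio of 1.37 (1.33 to 1.41), and Rnf128 at 501 against 337 CPM, a ratio of 1.49 (1.39 to 1.59). In male cells Lgmn had a ratio of 1.23 (1.12 to 1.35) and Rnf128 of 1.14 (0.91 to 1.42), the latter interval holding 1. In female cells they were at 1.41 and 1.62. Over gated Mmp12-low cells the ratios were 1.62 (1.57 to 1.67) for Lgmn and 1.80 (1.68 to 1.93) for Rnf128. Against the F13a1/Stab1 macrophages of the same library (F13a1 plus Stab1 at 10 or more, Arg1 under 5, 1627 cells), Lgmn had a ratio of 0.99 and Rnf128 of 1.07. Lgmn and Rnf128 thus did not set the Mmp12-high cells apart from that class. At 3000 UMIs a cell, Cd36, Lgmn and Rnf128 were all detected in 55.3% of Mmp12-high and 32.2% of Mmp12-low macrophages. They were all detected in 0.585% of 3418 EGFP-rich mesenchymal cells (EGFP at 3 or more, C1q under 1), which had a median of 31852 UMIs before thinning. Lgmn alone was found in 18.2% of those EGFP-rich cells and Cd36 in 3.04%, and Lgmn is also made outside macrophages.

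Across all genes the 2 groups were close. Rule genes left out, 3671 genes reached 50 CPM in either group, and 99.0% of them were within 2-fold. In the Mmp12-high macrophages 30 (0.817%) were higher by 2-fold or more and 5 (0.136%) were lower. The members were picked on Mmp12 in these same cells, so these counts and ratios are a description. Against the gated Mmp12-low cells, 40 genes (1.08%) were higher and 11 (0.298%) lower by that rule.

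**Figure D2:**
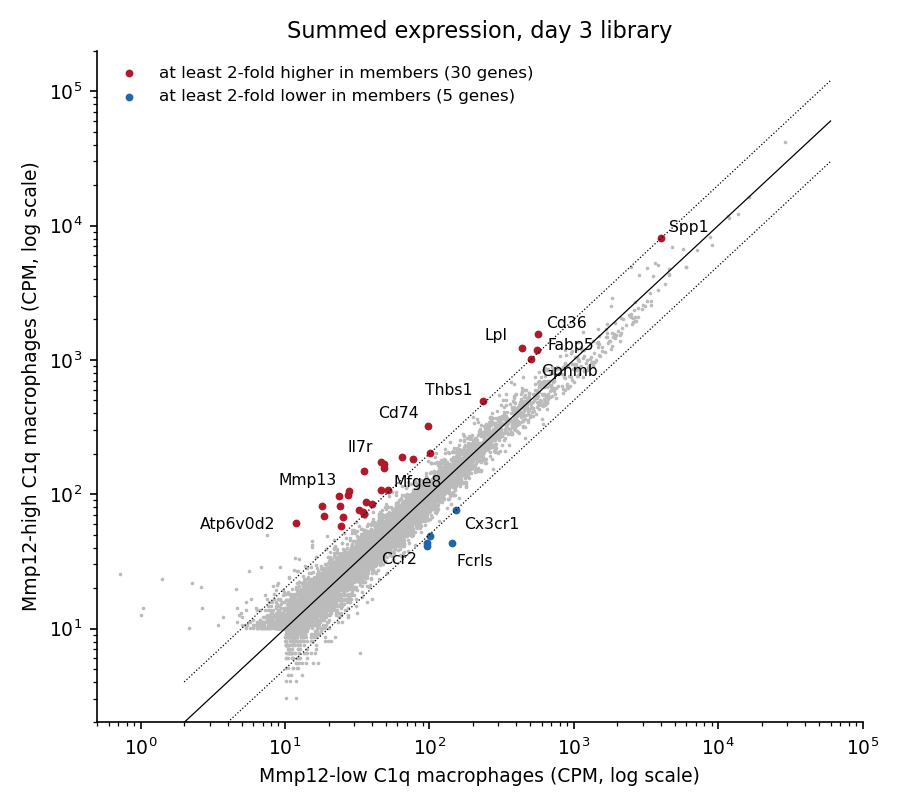
Summed expression of each gene (CPM, log scale) in the 327 Mmp12-high macrophages (y axis) and the 3686 Mmp12-low macrophages (x axis) of the day-3 library, for genes at 10 CPM or more. The solid line marks equality and the dotted lines 2-fold differences. The 30 red and 5 blue genes are those at 50 CPM or more beyond them, and most genes lie close to equality.

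Several genes of lipid uptake, storage and transport were higher. Of 28 listed genes, 23 reached 10 CPM, and 10 of these were higher by 1.5-fold or more and 0 lower. Over all 8346 genes that reached 10 CPM, 3.97% were higher by that fold and 3.65% lower. The list's median log2 ratio was 0.28, against 0.00 for all genes at 10 CPM or more. Lpl, lipoprotein lipase, which releases fatty acids from triglycerides, was at 1217 CPM in Mmp12-high and 434 CPM in Mmp12-low macrophages (2.80, 2.68 to 2.93). Fabp5, a carrier of fatty acids in the cytosol, was at 1187 against 554 CPM (2.14, 2.05 to 2.24). Its relative Fabp4 was at 49.5 against 7.49 CPM (6.62, 5.13 to 8.49). Gpnmb, a membrane glycoprotein of lipid-laden and lysosome-rich macrophages, was at 1014 against 503 CPM (2.02, 1.92 to 2.12). Plin2, which coats lipid droplets, was at 661 against 383 CPM, and Abca1, the cholesterol exporter, at 204 against 111 CPM. Trem2, a lipid-sensing receptor of lipid-associated macrophages, was at 476 against 485 CPM (0.98, 0.92 to 1.05), and at 482 CPM in gated Mmp12-low cells. For Apoe, apolipoprotein E, the ratio depended on the comparison cells: it was at 4771 against 4585 CPM (1.04, 1.02 to 1.06), but at 3061 CPM in gated Mmp12-low cells (1.56, 1.52 to 1.59) and 7488 CPM in F13a1/Stab1 macrophages. Of 18 cholesterol synthesis genes, 0 passed 1.5-fold in either direction.

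Lpl and Cd36 differed in how they stood against the other macrophage classes. Lpl was at 1217 CPM in Mmp12-high cells, 525 CPM in Arg1 macrophages (Arg1 at 5 or more, F13a1 plus Stab1 under 10, 348 cells), 180 CPM in F13a1/Stab1 macrophages and 579 CPM in gated Mmp12-low cells. Cd36 was at 1562, 983, 588 and 547 CPM in the same order, and Fabp5 at 1187, 1058, 567 and 505 CPM. The Arg1 macrophages thus stood next to the Mmp12-high cells for Cd36 and Fabp5, and the F13a1/Stab1 macrophages had the lowest Lpl. The classes also differed in Mmp12 itself: 82 of the 348 Arg1 macrophages (23.6%) and 66 of the 1627 F13a1/Stab1 macrophages (4.06%) held it at 10 or more, with levels of 855 and 163 CPM. Against Arg1 macrophages, 16 genes (0.438% of 3651) were at least 2-fold higher in Mmp12-high cells and 4 (0.11%) lower. Against F13a1/Stab1 macrophages, 42 (1.14% of 3682) were higher and 20 (0.543%) lower.

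**Figure D3:**
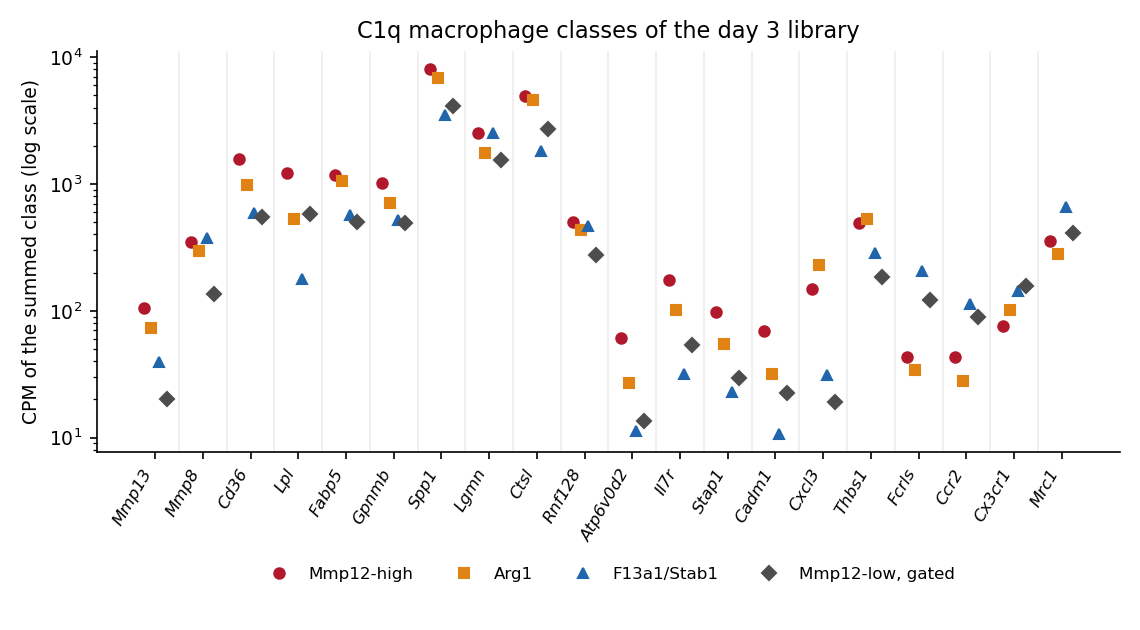
Summed expression (CPM, log scale) of 20 genes in 4 classes of C1q macrophages of the day-3 library: Mmp12-high (red circles), Arg1 (orange squares), F13a1/Stab1 (blue triangles) and gated Mmp12-low (grey diamonds). Lpl was at 1217, 525, 180 and 579 CPM in these classes.

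Of 13 metalloproteinase and TIMP genes at 10 CPM or more, the rule gene Mmp12 not being in the list, 5 were at least 1.5-fold higher and 0 lower, beside 3.97% and 3.65% of all genes, with a median log2 ratio of 0.40. Mmp13, a collagenase, was at 105 CPM in Mmp12-high and 27.7 CPM in Mmp12-low macrophages (3.80, 3.24 to 4.44), with ratios of 4.18 in male and 3.43 in female cells. Mmp9, a gelatinase, was at 178 against 97.7 CPM (1.82, 1.62 to 2.04). Mmp8, a collagenase first described in neutrophils, was at 347 against 218 CPM (1.59, 1.47 to 1.72). Mmp14, a membrane-bound collagenase, had a ratio of 1.54 and Mmp19 of 1.58. Adam15, Adam17 and Timp2 had ratios of 0.94, 0.95 and 1.32. Mmp9 and Mmp8 were not highest in the Mmp12-high cells. Mmp9 was at 290 CPM in Arg1 macrophages (Mmp12-high over Arg1 0.61, 0.54 to 0.70), and Mmp8 at 375 CPM in F13a1/Stab1 macrophages. Mmp14, at 207 CPM in Mmp12-high cells, was at 199 CPM in Arg1 macrophages (1.04, 0.91 to 1.19).

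Mmp12 lies on chromosome 9 at 7344381 to 7369499 (GRCm38, plus strand) among other metalloproteinase genes. Mmp13 starts upstream of it at 7272514, and Mmp3, Mmp10, Mmp8, Mmp27, Mmp20 and Mmp7 follow. These neighbours were chosen after their values were seen. The neighbours did not share a level: Mmp13 and Mmp8 were higher, as above, while Mmp3, stromelysin, was at 6.06 CPM in Mmp12-high and 6.16 CPM in Mmp12-low macrophages (0.98, 0.50 to 1.77). Mmp10 had 2 UMIs and Mmp27 had 5 UMIs in the Mmp12-high cells, and Mmp20, Mmp7 and Mmp1b had 0, where 3 counts over the group is the limit that a count of 0 allows. Mmp1b overlaps the 3' end of Mmp12 on the other strand (7368239 to 7388047). The sources used here do not say how reads of overlapping genes were assigned. The windows around the starts of 6 of these genes (RefSeq, GRCm38.p6, 250 bases before to 50 after the start, given 5' to 3' on the plus strand) are shown because the genes adjoin and differ in level, with 2 starts for Mmp12. Windows of Mmp1a, Mmp1b, Mmp20 and Mmp7 are counted but not printed. Capitals mark the AP-1 motif TGANTCA or the ETS motif GAGGAAGT, read on both strands. The E-box CACGTG was also searched and has 0 matches in the printed windows. They lie at chr9:7344147-7344446 and chr9:7347124-7347423 for Mmp12, chr9:7272264-7272563 for Mmp13, chr9:7558179-7558478 for Mmp8, chr9:7445572-7445871 for Mmp3, chr9:7502092-7502391 for Mmp10 and chr9:7571146-7571445 for Mmp27.
Mmp12 window 1: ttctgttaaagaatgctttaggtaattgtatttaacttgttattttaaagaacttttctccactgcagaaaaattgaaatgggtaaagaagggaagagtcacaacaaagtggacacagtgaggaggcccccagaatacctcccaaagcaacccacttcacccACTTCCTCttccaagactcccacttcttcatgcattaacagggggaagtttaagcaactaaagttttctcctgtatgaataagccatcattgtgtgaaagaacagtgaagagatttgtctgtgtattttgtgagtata
Mmp12 window 2: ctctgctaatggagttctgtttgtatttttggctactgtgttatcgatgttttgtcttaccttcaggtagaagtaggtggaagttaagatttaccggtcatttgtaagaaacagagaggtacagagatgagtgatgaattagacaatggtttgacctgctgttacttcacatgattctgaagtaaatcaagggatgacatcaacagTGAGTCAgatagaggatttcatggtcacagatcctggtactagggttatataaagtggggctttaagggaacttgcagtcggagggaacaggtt
Mmp13: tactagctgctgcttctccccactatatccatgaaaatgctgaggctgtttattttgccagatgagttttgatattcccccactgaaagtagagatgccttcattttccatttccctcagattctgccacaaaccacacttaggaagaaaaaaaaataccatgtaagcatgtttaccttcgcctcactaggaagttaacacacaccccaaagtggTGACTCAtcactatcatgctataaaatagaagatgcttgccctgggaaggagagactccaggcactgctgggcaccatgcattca
Mmp8: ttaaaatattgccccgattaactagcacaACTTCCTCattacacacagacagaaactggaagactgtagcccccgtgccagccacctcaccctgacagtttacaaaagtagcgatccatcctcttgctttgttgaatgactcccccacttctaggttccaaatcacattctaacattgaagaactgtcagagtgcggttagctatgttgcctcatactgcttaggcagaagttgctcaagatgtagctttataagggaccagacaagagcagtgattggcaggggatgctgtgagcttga
Mmp3: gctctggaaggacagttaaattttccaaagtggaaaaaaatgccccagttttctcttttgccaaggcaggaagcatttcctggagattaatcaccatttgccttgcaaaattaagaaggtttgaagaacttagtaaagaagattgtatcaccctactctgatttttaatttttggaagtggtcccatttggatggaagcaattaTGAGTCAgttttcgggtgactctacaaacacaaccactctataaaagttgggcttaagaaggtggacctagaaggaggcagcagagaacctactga
Mmp10: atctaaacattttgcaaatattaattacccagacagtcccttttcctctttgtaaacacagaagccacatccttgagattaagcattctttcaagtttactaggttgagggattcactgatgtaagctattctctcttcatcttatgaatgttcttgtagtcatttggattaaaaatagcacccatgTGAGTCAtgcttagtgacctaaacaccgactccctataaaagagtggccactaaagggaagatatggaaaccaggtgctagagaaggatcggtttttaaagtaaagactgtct
Mmp27: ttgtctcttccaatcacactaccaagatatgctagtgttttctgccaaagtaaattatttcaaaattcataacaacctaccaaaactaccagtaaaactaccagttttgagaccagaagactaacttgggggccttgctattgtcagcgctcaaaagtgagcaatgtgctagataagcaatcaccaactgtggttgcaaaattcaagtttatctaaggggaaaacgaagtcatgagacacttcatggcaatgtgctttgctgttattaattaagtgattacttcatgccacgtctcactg

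TGANTCA was in 4 of the 7 printed windows, GAGGAAGT in 2 and none of the motifs in that of Mmp27. Over all 12 windows of 10 metalloproteinase genes of chromosome 9 in the table, 8 held TGANTCA, 3 GAGGAAGT and 1 CACGTG. The AP-1 letters stood 44 bases before the start in window 2 of Mmp12, 35 before that of Mmp13, 46 before that of Mmp3 and 63 before that of Mmp10. The ETS letters stood 88 bases before the start in window 1 of Mmp12 and 221 before that of Mmp8. Of 32851 RefSeq windows of this length, 7.81% held TGANTCA, 3.20% GAGGAAGT and 7.15% CACGTG, on either strand. Over the 17 windows looked up, those of Cd36, Lgmn, Rnf128, Gpnmb, Spp1, Il7r, Mfge8 and Cxcl3 included, 5 held TGANTCA, 3 GAGGAAGT and 2 CACGTG. The AP-1 letters were found both in a gene that was higher in Mmp12-high cells, Mmp13, and in genes low there, such as Mmp3 and Mmp10. A match is a description of letters in this window.

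Most lysosomal genes differed little, and Ctsl and Ctsb passed 1.5-fold. Summed, the list was at 36470 CPM in Mmp12-high and 27848 CPM in Mmp12-low macrophages. Of 36 lysosomal genes, 2 were at least 1.5-fold higher and 0 lower, with a median log2 ratio of 0.15, and the share higher was near the 3.97% of all genes. Ctsl, cathepsin L, was at 4901 CPM in Mmp12-high and 2485 CPM in Mmp12-low macrophages (1.97, 1.93 to 2.02). Arg1 macrophages had nearly as much, 4605 CPM (Mmp12-high over Arg1 1.06, 1.04 to 1.09). Ctsb, cathepsin B, was at 4823 against 3202 CPM (1.51, 1.47 to 1.54). Of 15 V-ATPase subunits, which acidify the lysosome, Atp6v0d2 alone passed 1.5-fold. It encodes a subunit of macrophages and osteoclasts and was at 61.2 against 11.9 CPM (5.13, 4.12 to 6.35), the highest ratio past the 50 CPM minimum, while its relative Atp6v0d1 was at 214 against 209 CPM. Atp6v0d2 also stood in the osteoclast list, of which 10 genes reached 10 CPM. Of these, 3 were at least 1.5-fold higher and 0 lower, beside 3.97% and 3.65% of all genes, with a median log2 ratio of 0.33. In that list, Dcstamp, the fusion receptor, was at 14.2 against 4.68 CPM. Ctsk, the osteoclast collagenase, had a ratio of 0.90 (0.72 to 1.12) and Nfatc1 was at 41.4 against 60.5 CPM. Both groups leave out cells with Acp5 at 5 or more, so the list is read without Acp5-rich cells. Atp6v0d2 had a UMI in 12.2% of Mmp12-high and 2.43% of Mmp12-low cells at 3000 UMIs, against 2.28% of EGFP-rich cells.

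Of 21 secreted growth and matrix factors, 6 were at least 1.5-fold higher and 0 lower, with a median log2 ratio of 0.27. Over all genes at 10 CPM or more, 3.97% were higher by that fold and 3.65% lower. The genes given next come from this list, from other lists and from the highest ratios. Il7r, the receptor chain for interleukin-7 and TSLP, was at 174 CPM in Mmp12-high and 46.2 CPM in Mmp12-low macrophages (3.77, 3.33 to 4.25), and it was detected in 32.9% and 10.4% of cells at 3000 UMIs. Most lymphoid markers did not accompany it: 12 of the 14 lymphoid and mast cell markers, Cd3e, Cd79a and Nkg7 among them, had 0 UMIs in the Mmp12-high cells. Stap1, an adaptor protein that binds the Csf1 receptor, was at 98.0 against 27.2 CPM, and Cadm1, an adhesion molecule, at 69.2 against 18.6 CPM. Mfge8, a bridge between apoptotic cells and integrins, was at 156 against 48.1 CPM, with 20.8% of its UMIs in 1 cell. It was at 145 CPM in EGFP-rich cells, and the part of free RNA in its level was not tested. Spp1, osteopontin, was at 8057 against 3985 CPM (2.02, 1.99 to 2.06), beside 17076 CPM in EGFP-rich cells, and the part of free RNA was not tested here either. Thbs1, thrombospondin 1, was at 490 against 236 CPM, and at 532 CPM in Arg1 macrophages. Of 34 transcription factors, Egr2 (28.8 against 6.80 CPM), Atf3 (75.8 against 32.7 CPM) and Id2 (547 against 304 CPM) were at least 1.5-fold higher and Klf2 (50.5 against 100.9 CPM) was lower. Dusp1, an early response phosphatase, was at 168 against 48.8 CPM. It also had a level of 55.8 CPM in EGFP-rich cells.

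Among 15 chemokines, 6 were at least 1.5-fold higher and 2 lower, beside 3.97% and 3.65% of all genes. Ccl22, among the 6, had 42 of its 43 UMIs in the 10 MHC class II-rich cells described next. Cxcl3, a neutrophil attractant, was at 149 CPM in Mmp12-high and 35.2 CPM in Mmp12-low macrophages (4.22, 3.69 to 4.82). It was at 19.2 CPM in gated Mmp12-low cells (7.75, 6.58 to 9.14) and at 230 CPM in Arg1 macrophages, above its Mmp12-high level. Of the 15 highest genes, 14 were above 1 over Arg1 macrophages but only 8 passed 2-fold, H2-Eb1, H2-Aa, H2-Ab1 and Cd74 among them. Over that class Il7r had a ratio of 1.73, Stap1 of 1.80, Mfge8 of 1.81 and Mmp13 of 1.44. Ppbp was at 1.13 (0.98 to 1.31), an interval that holds 1. Cxcl2 was at 107 against 51.7 CPM, Ccl4 at 74.3 against 34.7 CPM and Ccl6 at 680 against 370.1 CPM. Ppbp was at 189 against 65.0 CPM, but 5 cells held 52.4% of its UMIs and its ratio in male cells was 0.96. The 2 lower ones rested on few UMIs: Cxcl10, an interferon target, had 6 UMIs (ratio 0.25, 0.092 to 0.56) and Ccl12 had 10 (ratio 0.45, 0.21 to 0.83).

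The MHC class II genes H2-Eb1, H2-Aa, H2-Ab1 and Cd74 had ratios of 4.57, 4.16, 3.43 and 3.27, and of 2.90, 2.64, 2.30 and 2.15 over gated Mmp12-low cells, yet few cells carried them. Only 10 of the 327 Mmp12-high cells (3.06%, 1.48 to 5.55) held these 4 genes together at 10 or more per 10000, and those 10 held 94.6% of their MHC class II UMIs. In Mmp12-low macrophages 49 of 3686 cells (1.33%, 0.985 to 1.75) did so, with 85.9% of the UMIs. Without such cells the 4 genes summed to 32.7 CPM in Mmp12-high and 23.5 CPM in Mmp12-low macrophages, against 582 and 163 CPM with them. The 10 cells had Cd36 at 360 CPM and Rnf128 at 74.5 CPM, against 1613 and 519 CPM in the other 317, and Adgre1 at 211 against 220 CPM. All 50 Ccr7 UMIs and 42 of 43 Ccl22 UMIs, 2 genes of migratory dendritic cells, lay in them, and 1 cell held all of the Ccr7 UMIs. Of 13 dendritic cell markers, 4 reached 10 CPM. Of the 4, 3 (Ccr7, Ccl22 and Cd83) were at least 1.5-fold higher and 0 lower, beside 3.97% and 3.65% of all genes. The list's median log2 ratio was 2.30. In Cd83, 1 cell held 51.9% of the UMIs, and Flt3, Cd209a, Xcr1, Clec9a, Itgae and Siglech had 0 UMIs in the Mmp12-high cells. The MHC class II ratios, Ccr7 and Ccl22 therefore describe a few cells and not the class.

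The 5 genes at least 2-fold lower in the Mmp12-high macrophages were Fcrls, Cd33, Ccr2, Rnase4 and Cx3cr1. Fcrls, an Fc receptor-like gene of mouse resident macrophages and microglia, was at 43.0 CPM in Mmp12-high and 143 CPM in Mmp12-low macrophages (0.30, 0.24 to 0.37), with a UMI in 10.2% and 32.4% of cells at 3000 UMIs. Its ratio was 0.061 (0.0073 to 0.22) in male cells, with 2 UMIs in the Mmp12-high ones, and 0.334 in female cells. Cd33, an inhibitory sialic acid receptor, was at 41.4 against 96.3 CPM. Ccr2, the chemokine receptor of classical monocytes, was at 43.0 against 96.8 CPM (log2 ratio -1.17). In the Mmp12-high group 5 cells held 56.5% of its UMIs, and the log2 ratio of Ccr2 was -2.39 without dividing cells, -2.71 with C1q at 20 or more, -1.83 with Mmp12 at 20 or more and -3.99 in male cells, where it had 1 UMI. Cx3cr1, the fractalkine receptor, was at 76.3 against 153 CPM. Rnase4, a secreted ribonuclease, was at 48.5 against 101.2 CPM, beside 66.7 CPM in EGFP-rich cells. Fcrls and Ccr2 were also low in Arg1 macrophages, at 34.0 and 27.9 CPM, so neither was lower in the Mmp12-high cells than in that class. Over Arg1 macrophages Rnase4 had a ratio of 0.84 (0.64 to 1.09) and Cd33 of 0.76 (0.57 to 1.01), intervals that hold 1. Cx3cr1 was at 0.76 (0.62 to 0.93). Of the 15 lowest genes, 12 were below 1 over that class and 1 passed 2-fold. Ms4a6b and Ms4a6c, membrane proteins of macrophages, had ratios of 0.54 and 0.56. They are close paralogs, and the sources used here do not say how the authors' counting divides their reads.

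**Figure D4:**
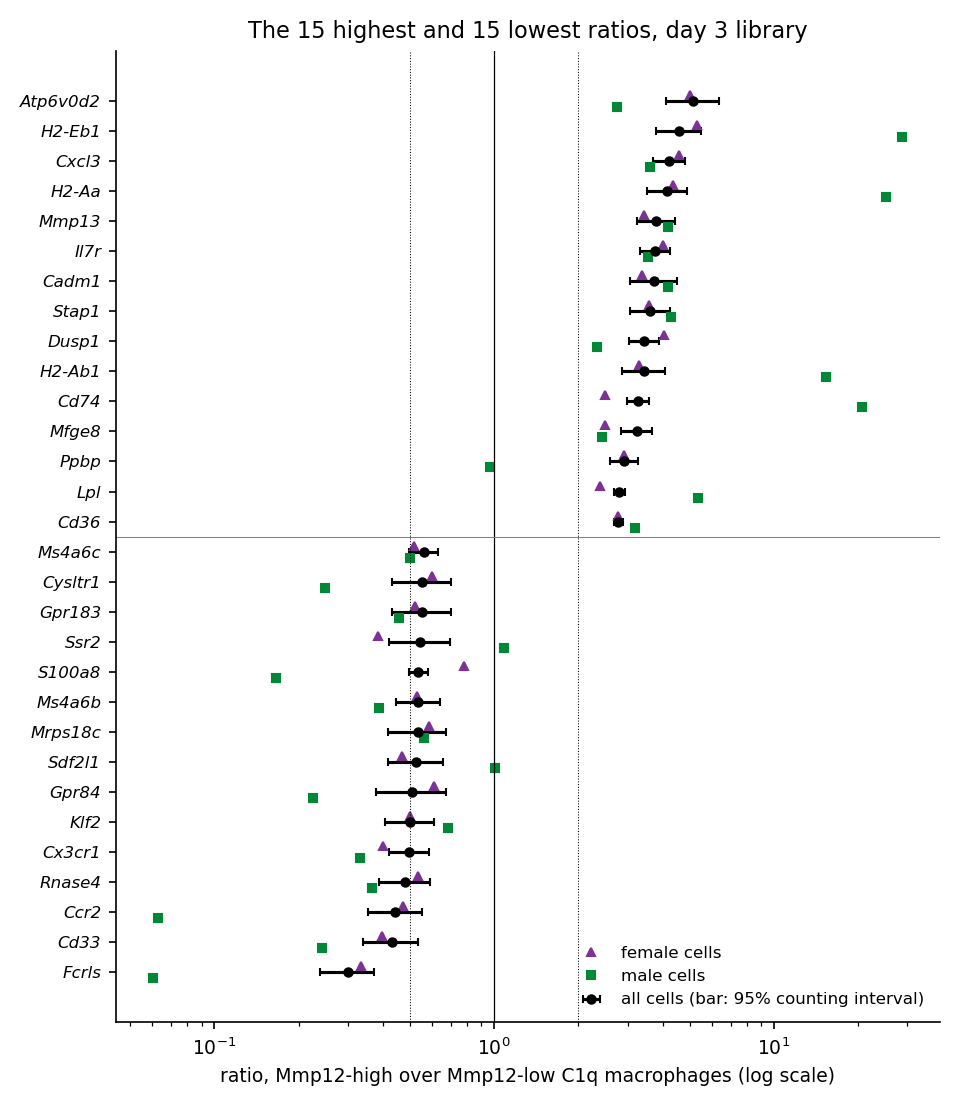
Ratio of Mmp12-high over Mmp12-low macrophages (log scale) for the 15 highest and 15 lowest genes at 50 CPM or more in the day-3 library, in all cells (black, with 95% counting intervals), female cells (purple triangles) and male cells (green squares). Of the 15 highest, 15 were above 1 in female and 14 in male cells, and of the 15 lowest, 15 were below 1 in female and 13 in male cells. These genes were picked on ratios over all cells, most of which were female.

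Cells of each sex come from different animals, so their values were set side by side. The 15 highest and 15 lowest genes were picked on ratios over all these cells, and 201 of the 327 Mmp12-high cells were female. The female counts below therefore follow largely from that choice, and the counts of both sexes are a description. Of the 15 highest ratios, 15 were above 1 in female and 14 in male cells, Ppbp being the exception. Of the 15 lowest, 15 were below 1 in female and 13 in male cells, where Sdf2l1 (1.01) and Ssr2 (1.09) were not. The male values rest on 39 Mmp12-high cells, and at that number 2.81% of all genes were higher by 2-fold or more and 2.78% lower, against 0.863% and 0.27% in female cells. Atp6v0d2 had a male ratio of 2.74 (0.81 to 7.46) on 5 UMIs in the Mmp12-high cells. Lpl had ratios of 5.34 (4.78 to 5.96) in male and 2.38 (2.25 to 2.52) in female cells. These intervals count UMIs of cells from 1 library and not animals, and a difference between the sexes was not tested.

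Markers of other cell types were low, with exceptions that stood beside the results above. The 14 mesenchymal markers summed to 270 CPM in Mmp12-high, 188 CPM in Mmp12-low and 7034 CPM in EGFP-rich cells. Of the 7 at 10 CPM or more, 4 were at least 1.5-fold higher and 0 lower, beside 3.97% and 3.65% of all genes. Col1a2, among the 4, was at 51.5 against 29.1 CPM. Per cell their sum reached at most 43.4 per 10000 in Mmp12-high and 644 in Mmp12-low macrophages. The 14 neutrophil markers summed to 1353 CPM in Mmp12-high and 1652 CPM in Mmp12-low macrophages. Of 11 at 10 CPM or more, 2 were higher by that fold (Mmp8 and Mmp9) and 6 lower, beside the same shares of all genes. S100a8 was at 331 against 616 CPM, but 1 cell held 57.3% of its UMIs in the Mmp12-high group. Erythroid and endothelial markers summed to 6.57 against 5.16 CPM and muscle markers to 0.505 against 2.08 CPM. The part of these in any ratio was not tested.

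Several differences grew with Mmp12 across bins of its level, and a step at the threshold of 10 was not tested. Among C1q macrophages within the limits on Arg1, F13a1 and Stab1, 6 bins of Mmp12 (under 2, 2 to 10, 10 to 20, 20 to 50, 50 to 100 and 100 or more per 10000) held 2000, 445, 136, 122, 34 and 35 cells. The bins at 10 or more are the Mmp12-high cells, and the lowest bin is the gated Mmp12-low cells. Most genes below were named for ratios between such cells or after their values were seen. A rise or fall from the lowest to the upper bins therefore follows largely from that choice, and the values are a description. Over these bins Cd36 was at 547, 793, 1087, 1535, 2614 and 3573 CPM. Lpl was at 579, 747, 883, 1153, 1724 and 3096 CPM, and Gpnmb at 495, 671, 872, 925, 1326 and 2009 CPM. Each of these 3 genes was higher in every successive bin. Ctsl ran the same way, at 2691, 3176, 3865, 4849, 6928 and 9534 CPM, as did Il7r, at 53.3, 87.9, 126, 176, 246 and 391 CPM, and Rnf128, at 277, 349, 465, 478, 600.0 and 729 CPM. Atp6v0d2 stayed between 13.5 and 20.0 CPM up to a level of 20 and was at 63.8, 75.8 and 292 CPM in the last 3 bins. Spp1 was at 4151 CPM in the lowest and 20546 CPM in the highest bin, where it stood above its 8216 CPM in the bin before. Itgax, which encodes CD11c, was at 1.22 CPM in the lowest and 79.6 CPM in the highest bin. Ctsk first fell, from 65.8 CPM in the lowest bin to 27.7 CPM between 20 and 50, and was at 159 CPM (102 to 237, 24 UMIs) in the highest. From the lowest to the highest bin the lysosomal genes Ctsb, Ctsd and Psap went from 3005 to 6835, 3135 to 7637 and 3265 to 8267 CPM. Ctsc and Man2b1 went the other way, from 439 to 199 CPM (30 UMIs) and from 213 to 159 CPM (24 UMIs).

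Other genes ran the other way or peaked between. Ccr2 was at 89.0, 46.1, 60.1, 34.7, 12.6 and 6.63 CPM, and Cx3cr1 at 158, 117, 81.2, 79.0, 63.2 and 46.4 CPM. General macrophage markers did not move together. From the lowest to the highest bin Lyz2 went from 7637 to 4674 CPM, Csf1r from 490 to 298 CPM and Adgre1 from 232 to 186 CPM. Ctss went from 1063 to 2639 CPM, Itgam from 295 to 583 CPM and Mertk from 34.2 to 99.4 CPM. Fcrls was at 121, 75.1, 54.8, 29.1 and 12.6 CPM over the first 5 bins but at 66.3 CPM (31.8 to 122, 10 UMIs) in the highest. Cd74 was at 149, 430.3 and 634 CPM in the first 3 bins and at or under 34.7 CPM above them. Few cells carried the MHC class II genes, Cd74 among them. Of the 327 Mmp12-high cells, 10 held 94.6% of these UMIs, and 48 of the 2000 gated Mmp12-low cells held 89.6%. The Cd74 values of the bins thus rest largely on where a few cells fall. Cxcl3 peaked at 165 CPM between 10 and 20 and was at 19.9 CPM in the highest bin. Ube2c, a mitosis gene, lay between 196 and 232 CPM in the first 5 bins and had 1 UMI in the 35 cells of the highest. The bins share 1 library, and their median depth was 6869, 6227, 6816, 4946, 4186 and 4030 UMIs per cell.

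**Figure D5:**
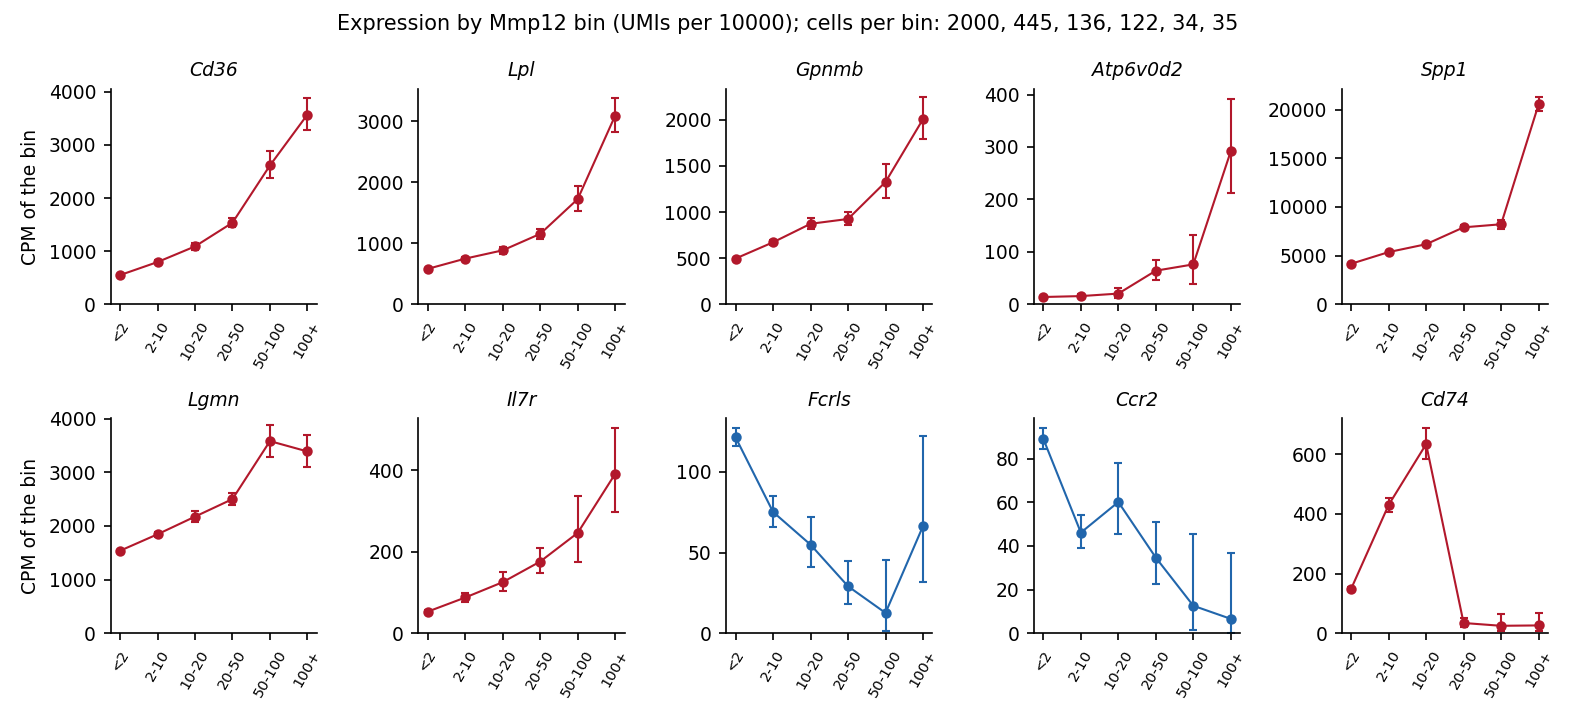
Expression (CPM of the bin, linear scale, with exact 95% Poisson intervals) of 10 genes in 6 bins of Mmp12 level (UMIs per 10000) among C1q macrophages of the day-3 library within the limits on Arg1, F13a1 and Stab1. Cd36 was at 547 CPM in the lowest and 3573 CPM in the highest bin, Ccr2 at 89.0 and 6.63 CPM, and Cd74 was highest between 10 and 20, at 634 CPM. Of the 327 Mmp12-high cells, 10 held 94.6% of the MHC class II UMIs, Cd74 included. The bins at 10 or more are the Mmp12-high cells, and most of these genes were named for ratios between cells of the upper and lowest bins.

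The 13 cells of the uninjured library that passed the same rule come from data the rule was not set on. They are few, and their CPM values and intervals describe the UMIs of these 13 cells only. They held Mmp12 at 10.9 to 244 per 10000, with a median of 26.6. Cd36 had 154 UMIs in 12 of the 13 cells, which is 1446 CPM (1226 to 1693), against 389 CPM in the 1073 uninjured Mmp12-low macrophages. Lpl had 245 UMIs in 11 cells, which is 2300 CPM against 549 CPM, and Spp1 had 1175 UMIs in 11 cells. Il7r had 24 UMIs in 8 cells (225 against 14.5 CPM), Stap1 had 19 in 5 cells (178 against 12.3 CPM) and Mfge8 had 44 in 8 cells (413 against 33.9 CPM). Itgax had 20 UMIs in 5 cells, which is 188 CPM (115 to 290) against 0.325 CPM. Lgmn, at 451 CPM (332 to 597) against 398 CPM, and Rnf128, at 150.2 CPM (85.9 to 244) against 91.4 CPM, had intervals that held the level of the other cells. Of the 15 genes with the highest ratios at day 3, 12 were above the uninjured Mmp12-low level in these cells. H2-Eb1, H2-Aa and Dusp1 were not. For 6 of the 12 the whole interval lay above it, Cd74 with 9 UMIs in 2 cells among them. The rest, Cxcl3, Atp6v0d2, Mmp13, H2-Ab1, Ppbp and Cadm1, had only 1 to 3 UMIs each in the 13 cells. The share of all genes above that level is not given here, so the count is a description.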

How the data were processed

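Periosteal cells of 2 mouse libraries, day 3 after fracture and uninjured, were measured by droplet 3' RNA sequencing after explant culture, per the labels' protocols. The deposited values are raw UMI counts of each gene in each barcode, whole numbers without normalization. The submitters' processing notes name Cell Ranger, Seurat 4.0.1 and build mm10, and the matrix header software version 3.1.0. The sources used here do not give how barcodes were called as cells. The labels' protocols describe growth in explant culture, the series' design text explants without expansion, and the labels name the molecule as DNA.

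CPM is the summed count of a class per 1000000 of its UMIs, with exact Poisson intervals. A ratio has an exact conditional binomial interval. Gene positions came from GENCODE M21, which matched 30934 of 31055 identifiers, and promoter windows from RefSeq, where 14 of 18 genes looked up had 17 windows. There was 1 library per condition, so no p-value was computed. Depth per retained cell had a median of 8127 UMIs at day 3 and 19836 uninjured. Shares of cells with a UMI and of dividing cells were taken after thinning to 3000 UMIs (seed 1), shallower cells being left out. The alternative without dividing cells instead removed cells of any depth with at least 3 unthinned UMIs of mitosis genes. It left 232 Mmp12-high and 2366 Mmp12-low cells, and its cut depends on depth. Scrublet (in scanpy 1.11.5) gave doublet scores, and its automatic threshold marked 0 cells in both libraries. The top scores at 0.8% per 1000 barcodes were therefore marked but not removed. A male cell held a UMI of Ddx3y, Eif2s3y, Kdm5d or Uty and no Xist, a female cell the reverse.

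The members and gene lists were chosen with earlier results of these data known. Named genes were the 4 label genes, the 15 highest and 15 lowest ratios at 50 CPM or more, without rule genes, mitochondrial, ribosomal, globin and sex genes and unnamed models, and the 2 highest and 2 lowest of each list at 10 CPM or more. Fabp5, Gpnmb, Plin2, Abca1, Trem2, Apoe, Spp1, Id2, Cxcl2, Ccl4, Ccl6, Mmp14, Mmp19, Timp2, Adgre1, Cd68, Csf1r, Ctsk, Ctsd and Psap were chosen after their values were seen. Ratios and thinning were checked on simulated counts. Scripts ran in Python 3.11.15 with scipy 1.17.1, numpy 2.4.6, matplotlib 3.10.9 and pandas 2.3.3, and, for TMM factors only, edgeR 4.0.16 in R 4.3.3. Alternatives covered the comparison cells, doublets, depth, thinning, weight of cells, scaling, thresholds, dividing cells and sex.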

Additional observations from a re-analysis of the deposited data

How the results depend on the processing

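No paired analysis was possible because each condition had 1 library and no test was made. The count of genes at least 2-fold higher, 30 of 3671 tested, lay between 26 and 41 under all alternatives but 3. In those 3 it was 82 of 8346 genes with a 10 CPM minimum, 110 of 3918 in male cells and 53 of 3732 with Mmp12 at 20 or more. The 10 CPM minimum thus also tested more genes. The count lower, 5 of 3671, was 11 of 3695 against gated comparison cells, 11 of 3770 after thinning and 52 of 8346 with a 10 CPM minimum. It was 8 of 3592 without dividing cells, 109 of 3918 in male cells and 10 of 3708 in female cells. With Mmp12 at 20 or more it was 21 of 3732, and with C1q at 20 or more it was 8 of 3644. The members numbered 191 with Mmp12 at 20 or more and 171 with C1q at 20 or more. With Mmp12 at 20 or more the log2 ratio reversed to -2.21 for H2-Eb1, -1.79 for H2-Aa, -1.63 for H2-Ab1, -1.61 for Cd74 and -1.23 for Ccl22. In male cells it reversed to -0.051 for Ppbp, -0.42 for Marco, -0.18 for Cd83 and 0.94 for Ccl12, and with C1q at 20 or more to -0.12 for Marco. Most of the Ppbp, Marco, Cd83, Ccl22 and MHC class II UMIs of the members lie in a few cells. The cause of the reversals was not tested. Without MHC class II-rich cells of both groups, an alternative chosen after seeing the data, 30 of 3678 genes were higher and 5 lower. In that alternative 12 of the 15 highest ratios still passed 2-fold. Of the recomputed log2 ratios of named genes, 1340 stayed within the counting interval of the main ratio, 364 left it, and the 10 above reversed. A reversal was counted only for genes at least 2-fold apart in the main comparison. Smaller ratios that changed sign, such as those of Sdf2l1 and Ssr2 in male cells, are not among the 10. The low numbers of cells, 13 uninjured cells and 39 male members, limit those values.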
